A study of Mus musculus with 60 samples.

Results

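Cocaine-seeking and sucrose-seeking neurons of the nucleus accumbens (NAc) were sorted from the same mice and compared by RNA-seq. The comparison takes 12 of the 60 libraries of the series, 6 cocaine-seeking and 6 sucrose-seeking, chosen by the region, population, sex and pool that their titles give. Each library is RNA of cells pooled from 3 mice, with 3 pools of females (F1 to F3) and 3 of males (M1 to M3), and every pool gave a library of each kind. The adult mice all carried a tamoxifen-inducible Cre knocked into the Fos locus and the Ai14 reporter, in which Cre switches on the red protein tdTomato (genotype label Ai14xFosiCre). All of them had learned to self-administer both intravenous cocaine and sucrose pellets under food restriction, had undergone extinction, and had then been tested for cue-induced seeking of each reward. Cocaine-seeking cells are tdTomato-positive and cFos-negative: 4-hydroxytamoxifen given straight after the cocaine session left a lasting tag in cells that were active then. Sucrose-seeking cells are cFos-positive and tdTomato-negative, as stained in brains taken an hour after the later sucrose session. The reward, the kind of tag and the time since activity therefore cannot be told apart in this design. Double-positive (overlapping) and double-negative (non-ensemble) cells of the same NAc pools, 6 libraries each, serve below as reference levels only.

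The accumbens is made up mostly of GABAergic medium spiny neurons, which carry either the D1 dopamine receptor with dynorphin and substance P or the D2 receptor with enkephalin. A small number of interneurons, among them somatostatin, parvalbumin and cholinergic cells, shape their firing. An ensemble is the sparse set of neurons that fire together during a behavior, and immediate early genes such as Fos mark them because their transcription follows calcium entry. The sort gate was NeuN, the neuronal splicing factor made by Rbfox3, so astrocytes, microglia and the cells of blood vessels should have been left behind. Astrocytes clear glutamate and GABA from the synapse, endothelial cells and pericytes form the blood-brain barrier, and microglia are the resident macrophages of the brain.

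The 12 libraries held 10751480 to 22606734 counts each. Neuronal markers were present in every library: in counts scaled to library size (CPM), Rbfox3 was at 181 to 258, Ppp1r1b at 382 to 1090, Drd1 at 59.4 to 114 and Drd2 at 55.0 to 125 CPM. Slc17a7, a vesicular glutamate transporter of cortical projection neurons, was at 121 to 514 CPM in these accumbens libraries. Pool F2 goes against its label: the Y-linked gene Ddx3y was at 12.1 and 12.7 CPM in its cocaine- and sucrose-seeking libraries, against 0.337 to 1.44 in F1 and F3 and 15.6 to 37.6 in the male pools. Some results are therefore also given without that pool. The sucrose-seeking library of pool M1 also stood apart from the other 5 of its population, with 5.08% of its counts on transcripts that match no gene of the annotation against 3.33 to 3.97%.

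Of 22723 genes tested (edgeR quasi-likelihood test with the pool as a block), 2699 were higher and 2291 lower in cocaine-seeking libraries at an adjusted p under 0.05, which is 11.9% and 10.1% of the genes. Most of these changes were small, with a median log2 fold change (log2FC, cocaine-seeking minus sucrose-seeking) of 0.37 among the higher and −0.43 among the lower genes. At the study's own limits, an adjusted p under 0.01 and a log2FC beyond 0.75, 51 genes were higher (0.224%) and 117 lower (0.515%). Of the 51 higher ones 47 were protein-coding and 4 pseudogenes, and of the 117 lower ones 80 and 32. Among the 17733 genes not past 0.05, 14373 were protein-coding and 3051 pseudogenes. Without the pool block the same test called 739 higher and 622 lower genes at 0.05, and without pool F2 1869 and 1402. In bulk RNA such as this, fewer cells of a type and less RNA per cell cannot be told apart.

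The libraries of the populations also differed in makeup, and these values stand beside every result below. Transcript models annotated as retained introns, spliced models that keep the sequence of an intron, took 5.84 to 8.42% of protein-coding counts in cocaine-seeking libraries (median 8.13%) and 9.51 to 11.9% in sucrose-seeking libraries (median 10.8%). Every cocaine-seeking library lay below every sucrose-seeking library. The share was lower in 6 of 6 pools (exact sign-flip permutation test over pools, two-sided p = 0.031, the lowest that 6 pools can give; adjusted p = 0.0391 over the 10 measures of makeup). Overlapping cells were at 6.73 to 9.04% and non-ensemble cells at 5.33 to 7.13%, so the sucrose-seeking libraries were the highest of the 4 populations. Pseudogene counts were lower in the cocaine-seeking library of every pool as well, at 3.16 to 5.59% against 4.88 to 7.71%, and mitochondrial mRNAs were higher, at 2.15 to 2.75% against 1.71 to 2.25% (p = 0.031 each by the exact permutation test). Fewer genes had at least 1 count, 28360 to 30740 against 29930 to 32080, and total counts were lower in 5 of 6 pools. The part of the other measures of makeup in the changes of single genes was not tested. For retained introns, the genes were refitted on protein-coding transcripts alone, a fit added after seeing the data, which called 1685 higher and 1280 lower genes. Of the 2673 protein-coding genes first called higher, 1569 passed again in the same direction and 0 in the opposite one. Of the 1973 first called lower, 1892 were tested there, 1091 passed again in the same direction and 3 in the opposite one.

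**Figure D1:**
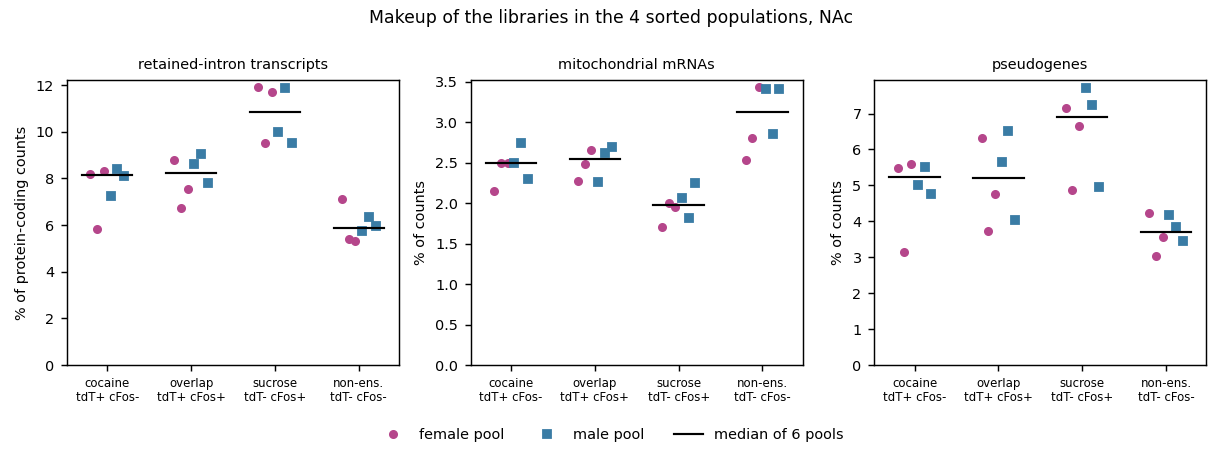
Share of counts on retained-intron transcripts (percent of protein-coding counts), mitochondrial mRNAs and pseudogenes (percent of counts) in each library of the 4 sorted NAc populations, with lines at the median of 6 pools. The sucrose-seeking libraries have the highest retained-intron share, 9.51 to 11.9%, and the non-ensemble libraries a share of 5.33 to 7.13%.

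Genes of the neuronal cytoskeleton and soma were higher in cocaine-seeking libraries. Of 16 neuron-wide genes, 15 were higher and 0 lower at an adjusted p under 0.05, with a median log2FC of 0.48, where the median of all genes was −0.07. Nefh, the heavy neurofilament subunit of large axons (GRCm39 chr11:4888740-4898130, minus strand), was at 150 to 224 CPM in cocaine-seeking libraries (median 188) and at 72.0 to 143 CPM in sucrose-seeking libraries (median 114). No cocaine-seeking library was as low as the highest sucrose-seeking library. Its log2FC was 0.73 (SE 0.07, adjusted p = 6.81e-05 by edgeR). The light neurofilament gene Nefl (0.61), the surface glycoprotein Thy1 (0.59) and the neuronal tubulin Tubb3 (0.54) had the next smallest p, all higher in 6 of 6 pools, as 13.2% of all genes were. Rbfox3 itself, the gene of the NeuN gate, differed least among those that passed (log2FC 0.19, SE 0.06, adjusted p = 0.0366), and the RNA-binding protein Elavl2 did not pass (0.11, adjusted p = 0.406).

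Vesicle release genes moved the same way, with 21 of 25 higher, 0 lower and a median log2FC of 0.42. Syp, synaptophysin of the vesicle membrane (chrX:7504710-7519499, plus strand), was at 689 to 1140 CPM in cocaine-seeking libraries (median 785) and 420 to 734 CPM in sucrose-seeking libraries (median 515). The ranges overlapped only through the sucrose-seeking library of pool M1, and within each pool the cocaine-seeking library was the higher. Its log2FC was 0.63 (SE 0.07, adjusted p = 9.28e-05 by edgeR). The next smallest p were those of Rab3a, the vesicle GTPase (0.55), Nsf, the ATPase that takes apart SNARE complexes (0.46), and Slc32a1, the vesicular GABA transporter (0.52). Active zone genes were split: Bsn was higher (0.39, SE 0.06, adjusted p = 0.000503 by edgeR), while Pclo (0.13), Unc13a (−0.10) and Rims1 (0.10) did not pass. Without the block 7 of 16 and 11 of 25 genes on these 2 lists were higher, and with length-scaled counts 8 and 3. Summed over the list, neuron-wide genes were at 7468 to 8850 CPM in non-ensemble, 6384 to 8149 in cocaine-seeking and 4427 to 6564 CPM in sucrose-seeking libraries.

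**Figure D2:**
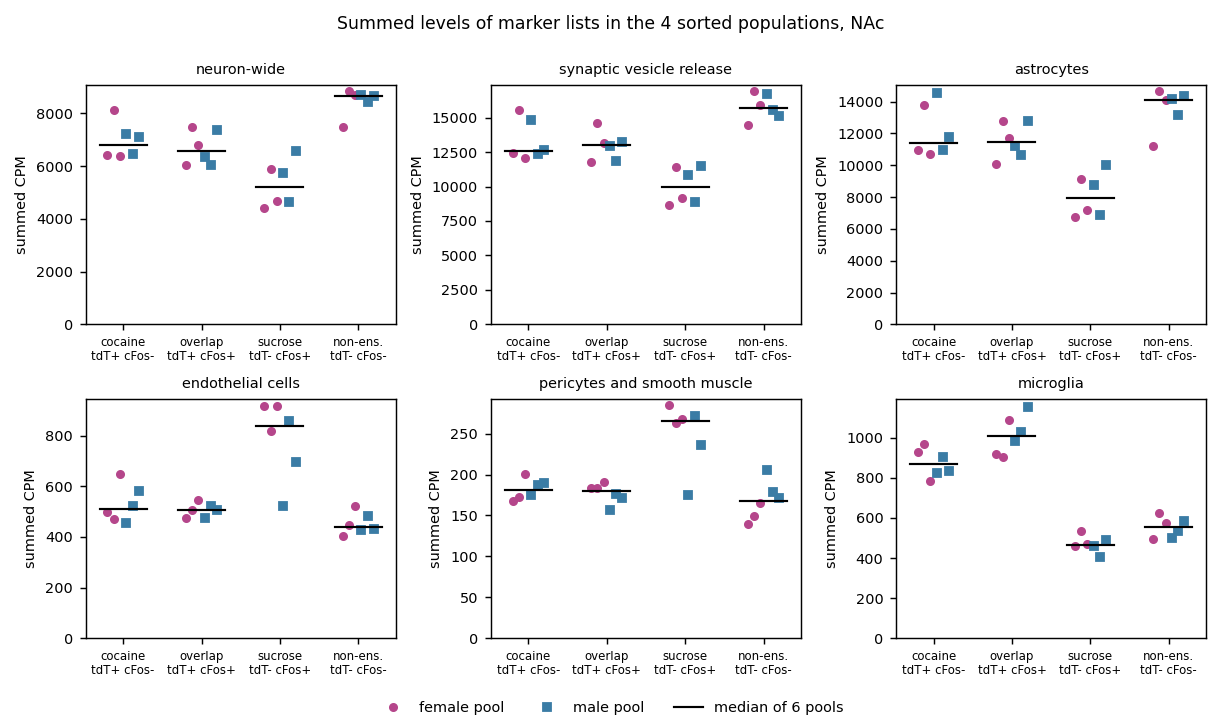
Summed CPM of 6 marker lists in each library of the 4 sorted NAc populations, with lines at the median of 6 pools. Medians of the neuron-wide, vesicle and astrocyte sums are lowest in sucrose-seeking libraries, those of endothelial and pericyte sums are highest there, and microglial sums are high in both tdTomato-positive populations.

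Medium spiny neuron genes had lower medians than the neuron-wide and vesicle lists, and their calls are read beside the 11.9% of all genes that were higher and the 10.1% that were lower. Of the 8 D1 genes, 1 was higher, Pdyn, the dynorphin precursor (log2FC 0.33, SE 0.08, adjusted p = 0.00836), while Drd1 itself had a log2FC of 0.18 (adjusted p = 0.0634). D2 genes rose in 3 of 6 cases: Penk, the enkephalin precursor (0.38), Adora2a, the adenosine receptor of D2 cells (0.29), and Drd2 (0.25, turning to −0.15 with length-scaled counts). Penk was at 553 to 1297 CPM in cocaine-seeking libraries (median 1041) and 459 to 921 CPM in sucrose-seeking libraries (median 746). The ranges overlapped widely, with pool M1 lowest in both populations, and Penk was higher in the cocaine-seeking library of each pool (SE 0.06, adjusted p = 0.000533 by edgeR). Median log2FC was 0.10 over the D1 list and 0.24 over the D2 list, and the difference between the lists was not tested. Summed D2 genes were higher in 6 of 6 pools, with a median log2 ratio of the sums of 0.43, beside 0.46 for the neuron-wide list. Penk made up most of that D2 sum, with a mean of 950 CPM in cocaine-seeking libraries beside 122 CPM for Adora2a, the next highest. Sp9 (0.23), Gpr6 (0.13) and Gpr52 (0.06) did not pass. Without the block 0 genes of the D1, D2 or shared lists passed, and without pool F2 2 of the 6 D2 genes were higher.

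Among 16 genes shared by both kinds of medium spiny neuron, 5 were higher and 1 lower, with a median log2FC of 0.09 that turned to −0.06 with length-scaled counts. Ppp1r1b, which encodes DARPP-32, the phosphatase inhibitor that integrates dopamine signals, was the highest (0.41, SE 0.06, adjusted p = 0.00051). Rgs9, the striatal GTPase-activating protein that shortens dopamine receptor signaling, was lower in 6 of 6 pools, at 197 to 534 CPM (median 381) against 266 to 653 CPM (median 509). Its ranges overlapped across pools, with a log2FC of −0.43 (SE 0.06, adjusted p = 0.000212 by edgeR). Pde10a (0.00), Foxp1 (0.04), Meis2 (0.04) and Arpp21 (−0.06), all abundant striatal genes, had log2FC near 0.

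Interneuron genes had 12 of 20 higher, 1 lower and a median log2FC of 0.44. Without the block, and again with length-scaled counts, 5 were higher and 0 lower, and without pool F2 10 were higher and 0 lower. Sst, the somatostatin gene (chr16:23707321-23711733, minus strand), was at 152 to 333 CPM in cocaine-seeking libraries (median 223) and 100 to 167 CPM in sucrose-seeking libraries (median 136). Only the cocaine-seeking libraries of the male pools M2 and M3 reached into the sucrose-seeking range. Its log2FC was 0.70 (SE 0.09, adjusted p = 0.000188 by edgeR), beside 0.62 for Npy and 0.45 for Nos1, which the same low-threshold-spiking cells make. Slc18a3, the vesicular acetylcholine transporter, had the highest log2FC of the list (0.83, SE 0.14, adjusted p = 0.000682) at 9.45 to 18.3 against 5.40 to 8.57 CPM, while Chat, the enzyme that makes acetylcholine, had 0.09 (adjusted p = 0.61). Pvalb (0.64), Calb2 (0.75) and Cck (0.72) also passed. Chodl, another marker of somatostatin and Nos1 cells, was the gene that was lower (−0.26, SE 0.08, adjusted p = 0.0342).

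Glutamatergic projection neuron genes, which adult accumbens neurons largely lack, were at low to moderate levels in every library. Of 8 genes 4 were higher and 0 lower, with a median log2FC of 0.41, which was −0.01 with length-scaled counts. Slc17a7 was higher in 6 of 6 pools (0.49, SE 0.07, adjusted p = 0.000237), as was the cortical transcription factor Tbr1 (0.46, SE 0.09, adjusted p = 0.00204). Summed levels of the list were 366 to 836 CPM in cocaine-seeking and 265 to 667 CPM in sucrose-seeking libraries, and their part in the neuron-wide result was not tested.

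Of 20 genes for neuropeptides and the granins packed with them, 10 were higher and 0 lower, with a median log2FC of 0.50. Without the block 5 were higher and with length-scaled counts 4. Scg2, secretogranin II, was at 265 to 446 CPM in cocaine-seeking libraries (median 308) and 171 to 277 CPM in sucrose-seeking libraries (median 207). The lowest cocaine-seeking library lay inside the sucrose-seeking range and the others above it (log2FC 0.57, SE 0.07, adjusted p = 0.000167 by edgeR). Chgb (0.53), Chga (0.55) and the nerve growth factor-inducible peptide Vgf (0.56) were close to it. Tac1 (0.21, adjusted p = 0.106) and Cartpt (0.29, adjusted p = 0.1) did not pass. The neuropeptide list shares Sst, Npy and Cck with the interneuron genes and Penk and Pdyn with the medium spiny neuron genes among the members that passed.

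Promoters of 3 of these peptide genes hold the cAMP response element TGACGTCA, the site at which CREB acts in textbook accounts of Sst, and are shown as examples of members that moved together. Promoter sequences are RefSeq entries on GRCm38.p6, an older build than the GRCm39 transcripts that were counted. Each line gives the 150 bases before the transcript start, with the 8 bases of the element in capitals.
Sst, chr16:23890845-23890994, minus strand: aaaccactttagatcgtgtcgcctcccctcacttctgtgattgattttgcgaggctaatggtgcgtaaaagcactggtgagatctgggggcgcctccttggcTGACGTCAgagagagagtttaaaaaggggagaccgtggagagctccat
Scg2, chr1:79440027-79440176, minus strand: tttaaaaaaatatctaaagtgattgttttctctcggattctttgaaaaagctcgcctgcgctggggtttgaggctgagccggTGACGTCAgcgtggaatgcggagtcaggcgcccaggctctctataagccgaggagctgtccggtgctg
Chgb, chr2:132781492-132781641, plus strand: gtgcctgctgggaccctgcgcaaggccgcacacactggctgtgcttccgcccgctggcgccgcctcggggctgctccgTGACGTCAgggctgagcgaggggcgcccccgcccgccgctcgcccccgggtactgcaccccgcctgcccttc

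The element starts 48, 68 and 72 bases before the start in Sst, Scg2 and Chgb. Over windows of 300 bases, 250 before and 50 after the start, 4 of the 16 neuropeptide genes with a RefSeq promoter held it (Cartpt, Chgb, Scg2 and Sst) against 549 of all 27025 genes with one (2.03%), and 3 of 26 activity-regulated genes did. TGACGTCA reads the same on both strands. A match to these letters is a description of the window and not a measured site.

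Receptors and channels were mixed. Of 25 genes for glutamate receptors and their scaffold, 7 were higher and 4 lower, with a median log2FC of 0.13 that turned to −0.10 with length-scaled counts. The lower genes all encode receptors: Grik2, a kainate receptor, was at 96.2 to 158 CPM (median 146) in cocaine-seeking and 110 to 234 CPM (median 198) in sucrose-seeking libraries. Only the sucrose-seeking library of pool M1 lay among the cocaine-seeking values. Grik2 had a log2FC of −0.49 (SE 0.07, adjusted p = 0.00049), the presynaptic metabotropic receptor Grm7 one of −0.46, and the AMPA receptor subunits Gria2 and Gria3 −0.23 and −0.19. Higher were scaffold and kinase genes such as Dlg3 (0.31), Dlg4 (0.23), Shank1 (0.22), Camk2a (0.25, and −0.19 with length-scaled counts) and Camk2b (0.21), with the receptor gene Grin2b (0.22). Without pool F1 or without pool M2, 3 of the list were higher and 2 lower.

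GABA receptor genes were higher in 8 of 14 cases and lower in 1. Gabbr2, a subunit of the GABA-B receptor, was at 168 to 326 CPM (median 219) in cocaine-seeking and 118 to 229 CPM (median 143) in sucrose-seeking libraries. The ranges overlapped, with pool M1 highest in both populations, and the cocaine-seeking library was the higher in 6 of 6 pools. Its log2FC was 0.52 (SE 0.07, adjusted p = 0.000278 by edgeR). The GABA-A receptor subunits Gabra3 (0.41) and Gabrb2 (0.40) also passed, while Gabra2 (−0.08) and Gabra4 (0.03), abundant subunits of medium spiny neurons, did not pass. Of 27 voltage-gated channel genes 8 were higher and 1 lower. They include Kcnc2, the fast potassium channel of interneurons (0.62, SE 0.07, adjusted p = 0.000136), and Scn2b, a sodium channel beta subunit (0.51), and the lower gene was Cacna1d, an L-type calcium channel (−0.39, SE 0.06, adjusted p = 0.000627).

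**Figure D3:**
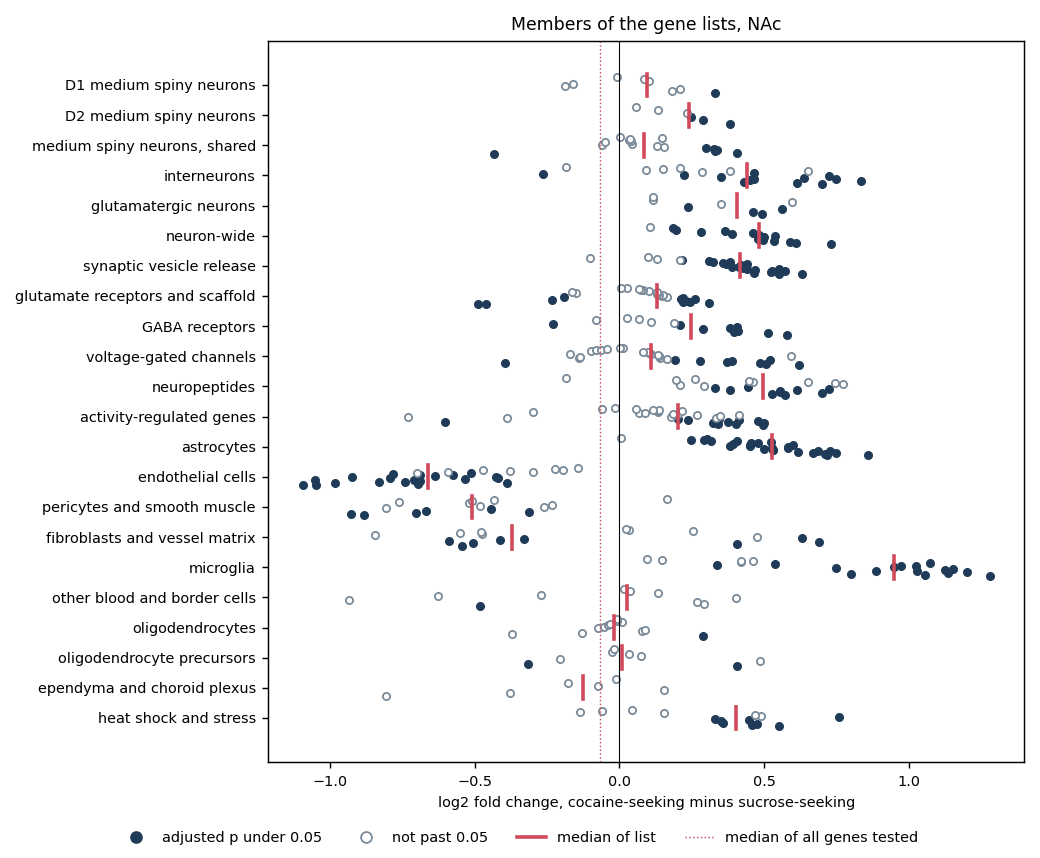
log2FC (cocaine-seeking minus sucrose-seeking) of each tested member of 22 gene lists, filled where the adjusted p was under 0.05, with the median of each list and the median of all genes (−0.07). Astrocyte, neuron-wide and vesicle genes lie to the right, endothelial and pericyte genes to the left, and D1 medium spiny neuron genes around 0.

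The Fos transcript did not differ past the threshold between cells gated as cFos-negative and cFos-positive. Fos was at 5.23 to 18.7 CPM in cocaine-seeking libraries (median 10.8) and 5.55 to 17.4 CPM in sucrose-seeking libraries (median 8.96). Both populations spanned about the same range, with the male pools M1 and M2 highest in each, and a log2FC of 0.19 (SE 0.15, adjusted p = 0.418 by edgeR), and cFos-negative non-ensemble cells were at 6.51 to 22.1 CPM. Fosb had a log2FC of 0.27 (adjusted p = 0.22) and Npas4, a neuron-specific factor induced by calcium, −0.39 (adjusted p = 0.0549). Of 33 activity-regulated genes tested, 12 were higher and 1 lower, beside 11.9% and 10.1% of all genes, with a median log2FC of 0.20. The higher genes were led by Ier5 (0.50, SE 0.08, adjusted p = 0.000478), Egr3 (0.34), Nr4a3 (0.40) and Jun (0.32), and also held, close to the threshold, Junb (0.41, adjusted p = 0.0421), Egr1 (0.35, adjusted p = 0.0483) and Arc (0.20, adjusted p = 0.048). Junb fell below the threshold in 9 of 18 alternative settings and Egr1 in 10. Arc turned to −0.19 with length-scaled counts. This count fell to 4, 7, 8 and 5 without pools F1, F2, F3 and M2, and to 3 on protein-coding transcripts alone. Without the block it was 2, and with length-scaled counts 0 were higher and 1 lower. Summed over the list, these genes were highest in non-ensemble libraries, at 898 to 1275 CPM (median 1068). Cocaine-seeking libraries were at 789 to 1090 (median 955) and sucrose-seeking libraries at 667 to 921 CPM (median 809). The study, setting immediate early genes against non-ensemble cells, describes their expression as largely confined to the sucrose-seeking population.

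Astrocyte genes were higher across nearly the whole list: 27 of 28 at an adjusted p under 0.05, 0 lower, with a median log2FC of 0.53. Slc1a3, the glutamate transporter GLAST (chr15:8663604-8741595, minus strand), was at 442 to 693 CPM in cocaine-seeking libraries (median 487) and 263 to 371 CPM in sucrose-seeking libraries (median 307). The populations did not overlap, which held for 2.05% of all genes in this direction. The log2FC was 0.72 (SE 0.07, adjusted p = 6.72e-05 by edgeR). Apoe, the lipid carrier, was at 1306 to 1748 against 716 to 1146 CPM and did not overlap either (0.71, SE 0.07, adjusted p = 7.75e-05). Slc6a11, the GABA transporter GAT-3 of astrocytes, was past the study's limits with a log2FC of 0.75 (SE 0.08, adjusted p = 9.28e-05), and so was Cst3, a protease inhibitor that microglia also make (0.86). Aqp4, the water channel of astrocyte endfeet, had 0.58 and Gja1, which forms their gap junctions, 0.58. Gfap, the intermediate filament that rises in reactive astrocytes, was near the low end of the list at 0.30 (SE 0.10, adjusted p = 0.0447), and Ntsr2 did not pass (0.01).

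Summed over the list, astrocyte genes were at 10730 to 14560 CPM in cocaine-seeking, 6757 to 9996 in sucrose-seeking, 10050 to 12800 in overlapping and 11240 to 14640 CPM in non-ensemble libraries. Every sucrose-seeking library was below every library of the other 3 populations. The defining markers were above 0 in all libraries, and their source within a NeuN gate was not tested. Without pool F2 22 of 28 genes were higher, without the block 16, with length-scaled counts 9 and on protein-coding transcripts alone 23.

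Vascular genes moved the opposite way. Of 28 endothelial genes 20 were lower in cocaine-seeking libraries and 0 higher, with a median log2FC of −0.66. Flt1, a receptor of vascular endothelial growth factor (chr5:147498414-147662826, minus strand), was at 27.8 to 64.2 CPM in cocaine-seeking libraries (median 37.7) and 47.4 to 106 CPM in sucrose-seeking libraries (median 90.1). The overlap came from the cocaine-seeking library of pool F3, the highest of its population, and the sucrose-seeking library of pool M1, the lowest of its own. Flt1 was lower in 6 of 6 pools, as 9.74% of all genes were, with a log2FC of −1.05 (SE 0.10, adjusted p = 6.81e-05 by edgeR). Slco1a4, an organic anion transporter of the blood-brain barrier, had −1.09 (SE 0.15, adjusted p = 0.00026), and the vascular receptors Tek and Kdr −1.05 and −0.71. The junction genes Cdh5 (−0.69), Pecam1 (−0.74), Esam (−0.64) and Cldn5 (−0.78) passed, and Ocln, another tight junction gene, did not (−0.70, adjusted p = 0.0962). The nutrient transporters Slc2a1 (−0.22), Slc7a5 (−0.19) and Slc16a1 (−0.14), which other brain cells also express, did not. The same held for Sox17 (−0.59), Ly6c1 (−0.47), Slco1c1 (−0.38) and Mfsd2a (−0.30) of the list.

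Pericyte and smooth muscle genes were lower in 6 of 15 cases and higher in 0, with a median log2FC of −0.51. Abcc9, a subunit of the pericyte ATP-sensitive potassium channel, was at 7.25 to 12.4 CPM (median 9.27) in cocaine-seeking and 10.3 to 20.8 CPM (median 18.2) in sucrose-seeking libraries. Only the sucrose-seeking library of pool M1 reached into the cocaine-seeking values (−0.93, SE 0.15, adjusted p = 0.000572 by edgeR). Atp13a5 (−0.88, SE 0.13, adjusted p = 0.00044) and Rgs5 (−0.70) are pericyte genes as well. The contractile genes of smooth muscle were low and split, with Myh11 lower (−0.67) and Acta2 (−0.43) and Tagln (0.17) not past the threshold. In the vessel matrix, the basement membrane genes Col4a1 (−0.54), Col4a2 (−0.51), Lama4 (−0.59) and Lama2 (−0.41) were lower with Fn1 (−0.33), whereas Sparc (0.41), Igf2 (0.69) and Col1a2 (0.63) were higher.

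Endothelial genes summed to 454 to 649 CPM in cocaine-seeking, 523 to 919 in sucrose-seeking, 474 to 548 in overlapping and 404 to 524 CPM in non-ensemble libraries. The sucrose-seeking libraries other than that of pool M1 were above all the libraries of the other 3 populations. For pericyte genes the same 5 libraries were the highest of the 24. Endothelial counts were 14 of 28 without pool F2, 13 without M2, 11 without the block and 6 with length-scaled counts. Pericyte counts were 3 of 15 without F1, F2, F3 or M2.

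The promoter of Flt1 is shown because Flt1 had the smallest p of the vascular genes and its promoter holds the element printed above for the peptide genes, which were higher. There the element starts 81 bases before the transcript start, and 2 of the 21 endothelial genes with a RefSeq promoter held it (Abcg2 and Flt1), both of them lower. The element was thus present in promoters of genes that moved in either direction.
Flt1, chr5:147726012-147726161, minus strand, GRCm38.p6: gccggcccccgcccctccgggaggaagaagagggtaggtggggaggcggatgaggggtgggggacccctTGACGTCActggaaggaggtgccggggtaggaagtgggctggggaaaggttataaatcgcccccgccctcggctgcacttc

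**Figure D4:**
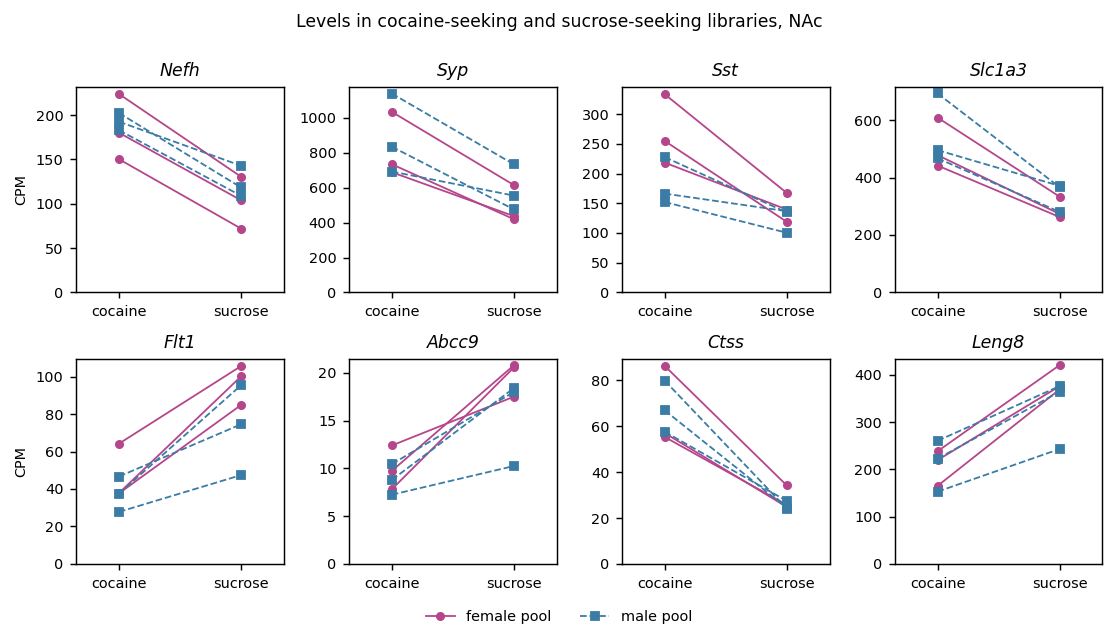
CPM of 8 genes in the cocaine- and sucrose-seeking libraries of each NAc pool, joined by pool, with y axes from 0. All 6 lines fall from cocaine- to sucrose-seeking for Nefh, Syp, Sst, Slc1a3 and Ctss and rise for Flt1, Abcc9 and Leng8.

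Microglial genes gave the highest log2FC of any list, with 16 of 21 tested higher, 0 lower and a median of 0.95. Ctss, a lysosomal protease (chr3:95433963-95463717, plus strand), was the gene with the smallest p among all tested, at 55.4 to 86.3 CPM (median 62.3) against 24.1 to 34.2 CPM (median 25.3). The populations were far apart in every pool, with a log2FC of 1.28 (SE 0.09, adjusted p = 1.07e-05 by edgeR). Summed over the list, microglial genes were at 783 to 971 CPM in cocaine-seeking and 903 to 1156 in overlapping libraries, against 403 to 536 in sucrose-seeking and 496 to 626 CPM in non-ensemble libraries. The order differs from that of the astrocyte and neuronal lists, since both tdTomato-positive populations were above both tdTomato-negative ones.

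Lysosomal genes were higher too, in a family that overlaps the microglial list and was not counted without the shared genes. Its highest log2FC was that of Ctss, and its example below, Ctsd, is on the microglial list as well. Of 28 genes for lysosomal proteases and hydrolases, a family picked after values were seen, 16 were higher and 0 lower, with a median log2FC of 0.33. Ctsd, the aspartic protease cathepsin D, was at 176 to 219 CPM (median 196) against 89.6 to 134 CPM (median 109). The populations did not overlap, and its log2FC was 0.80 (SE 0.07, adjusted p = 3.35e-05 by edgeR). Its promoter is shown because it holds TCACGTGA, letters of the CLEAR element that binds TFEB, the regulator of lysosomal genes. The element includes the E-box CACGTG, reads the same on both strands, starts 99 bases before the start and was found in 320 of 32851 promoter windows (0.974%). Of 15 microglial genes with a RefSeq promoter 2 held it, Ctsd and Siglech, against 304 of all 27025 genes with one (1.12%). Siglech did not pass (0.15, adjusted p = 0.706 by edgeR). The share within the lysosomal family was not counted, and TFEB activity was not tested.
Ctsd, chr7:142387828-142387977, minus strand, GRCm38.p6: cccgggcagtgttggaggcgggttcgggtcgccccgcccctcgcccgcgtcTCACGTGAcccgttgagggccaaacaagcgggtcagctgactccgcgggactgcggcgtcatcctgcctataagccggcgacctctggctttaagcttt

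Oligodendrocyte lineage genes showed little. Of 12 oligodendrocyte genes 1 was higher, Cnp (0.29, and −0.06 with length-scaled counts), with a median log2FC of −0.02, and the myelin genes Mbp (0.09) and Mobp (−0.01) did not pass. Of 8 precursor genes Olig1 was higher (0.41) and Vcan lower (−0.32). Among blood and border cells 1 of 10 tested was lower, Alas2 of the red cell lineage (−0.48), and of 6 ependymal and choroid plexus genes 0 passed, with an unadjusted p under 0.05 for 1 of them, Rarres2 (−0.81, adjusted p = 0.0706). In all, 11 of the 12 oligodendrocyte genes did not pass.

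The genes with the smallest p on the lower side belonged to no cell type list, apart from Flt1. Leng8, a nuclear RNA-binding protein (chr7:4140005-4151180, plus strand), was at 153 to 261 CPM (median 221) in cocaine-seeking and 243 to 421 CPM (median 373) in sucrose-seeking libraries. The sucrose-seeking library of pool M1 alone lay within the cocaine-seeking range (−0.81, SE 0.07, adjusted p = 3.46e-05 by edgeR). Lrrc45 (−0.75), Lrtm1 (−0.86), Zgpat (−0.79), Zfp950 (−0.78), Eef1akmt3 (−0.83), Wsb1 (−0.81), Rgs11 (−0.75), Cd46 (−0.90), Gm14443 (−0.80) and Spaca6 (−0.77) followed, and Lrrc45, Wsb1 and Gm14443 did not overlap between populations, which held for 1.2% of all genes in this direction. Retained-intron models held 90.2% of the Rgs11 counts and 98.7% of the Spaca6 counts in cocaine-seeking libraries. On protein-coding transcripts alone Lrrc45 (adjusted p = 0.0653), Zgpat (0.71, adjusted p = 0.4) and Rgs11 (−0.46, adjusted p = 0.535) no longer passed, and Zgpat turned in sign. Spaca6 was not tested there, and the other 8 were still lower.

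Retained introns were unevenly spread over the changes. Among protein-coding genes lower at 0.05, 765 of 1973 (38.8%) had over 20% of their counts on retained-intron models, against 126 of 2673 higher genes (4.71%) and 18.3% of all 21530 protein-coding genes. Of 28 tested genes for SR proteins and the kinases that act on them, regulators of splicing picked as a family after values were seen, 20 were lower and 0 higher, with a median log2FC of −0.42. Clk1, a kinase of SR proteins, had −0.71 (SE 0.10, adjusted p = 0.000283) and Srsf5 −0.52 (SE 0.06, adjusted p = 0.000143). Core spliceosome proteins went both ways, 8 of 43 higher and 8 lower. Of all genes 10.1% were lower, the share against which the next counts stand. Zinc finger genes named Zfp were lower in 74 of 400 cases and higher in 10, and olfactory, pheromone and taste receptor genes, which neurons of the accumbens are not known to use, in 163 of 1233 and 0.

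Of 14 heat shock and stress genes 8 were higher and 0 lower, with the smallest p for Hspa8 (0.55, SE 0.07, adjusted p = 0.000143), Hsp90ab1 (0.46) and Hsp90aa1 (0.48), which are abundant in resting neurons. The inducible Hspa1a rose (0.76, SE 0.18, adjusted p = 0.00678), whereas its near copy Hspa1b had −0.14 (adjusted p = 0.655), and reads of the pair may be divided unevenly by the quantifier. Without the block 3 of the list were higher and with length-scaled counts 2. In families picked after values were seen, the higher genes were 54 of 78 nuclear genes of oxidative phosphorylation (0 lower), 10 of 13 mitochondrial mRNAs (0 lower) and 42 of 75 ribosomal protein genes (1 lower). Cox5b had a log2FC of 0.52, mt-Nd2 0.46 and Rpl6 0.40. These families and the mitochondrial share of counts move together with the neuronal and astrocyte genes, and their part in those results was not tested.

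The change was also compared between pools of the sexes, since the study analysed them apart. The log2FC of 0 genes differed between female and male pools (edgeR interaction test, 22723 genes, lowest adjusted p 0.982), and 1081 had an unadjusted p under 0.05 (4.76%). DESeq2 also found 0, limma-voom 1 and the fit without a filter on low counts 7, and without pool F2 the count was 0. Fitted alone, the pools labelled female gave 3102 higher and 1547 lower genes, or 2249 and 1233 without F2, and the male pools 10 and 4. This gap in calls is not a difference shown between the sexes. Medians of these lists had the same sign in both: 0.65 and 0.36 for neuron-wide genes (female and male pools), 0.66 and 0.44 for astrocytes, −0.74 and −0.41 for endothelial cells and 0.91 and 0.98 for microglia. Pools F1 and F3 alone, a fit added after seeing the data, gave 0.63, 0.61, −0.73 and 0.82 for these lists. Cx3cr1, the fractalkine receptor of microglia, had 0.53 in pools labelled female (0.32 without F2) and 1.52 in male pools, a gene named after its values were seen (difference −1.06, SE 0.24, adjusted p = 0.982 by edgeR, and −1.24, SE 0.26, adjusted p = 1 without F2).

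The same comparison in the medial prefrontal cortex (mPFC), with 6 pools in other libraries, called 931 of 24697 genes higher (3.77%) and 962 lower (3.9%) at 0.05. By the study's methods both regions were punched from the same mice, so the mPFC is not an independent repeat. Microglial genes were alike there, 17 of 21 higher with a median log2FC of 0.87, and vesicle genes were higher in 12 of 25 cases. Endothelial genes were lower in 9 of 28 cases (median −0.40) and higher in 0. For astrocytes the mPFC had 8 of 28 higher and 1 lower, with a median log2FC of 0.16 against 0.53 in the NAc. A test of the difference itself called 0 of 26621 genes by edgeR and by limma-voom, with 2832 at an unadjusted p under 0.05 (10.6%) and a lowest adjusted p of 0.0501. DESeq2 called 295, 107 of them higher in the NAc and 188 lower, and edgeR without the filter called 3. Among the 12 genes with the smallest p and at least 10 CPM were several astrocyte genes, named after their values were seen, such as Mlc1 (difference 0.54, SE 0.11, adjusted p = 0.226), Gja1 (0.58), Slc1a3 (0.48) and Aqp4 (0.54).

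**Figure D5:**
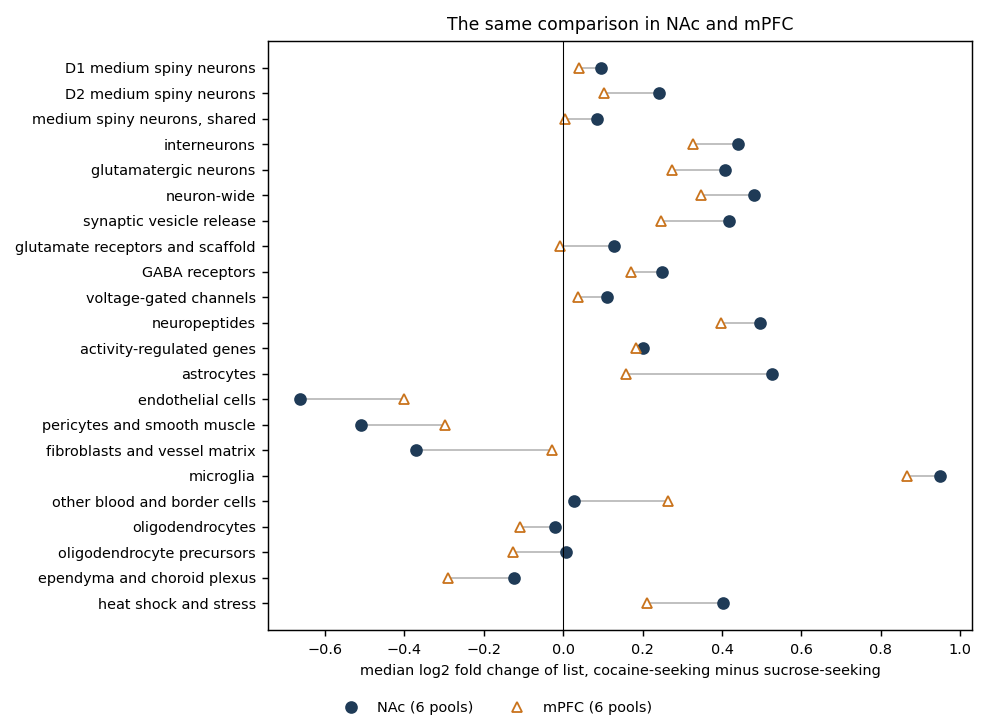
Median log2FC (cocaine-seeking minus sucrose-seeking) of 22 gene lists in the NAc (circles) and the mPFC (triangles), 6 pools each. The astrocyte medians, 0.53 and 0.16, and those of the vessel matrix lie furthest apart, and the microglial medians, 0.95 and 0.87, lie close.

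Genes that the study names for the NAc were measured with very unequal depth. Syt1, the calcium sensor of release, was at 903 to 1268 CPM (median 1033) in cocaine-seeking and 685 to 901 CPM (median 764) in sucrose-seeking libraries. The populations just failed to overlap, with a log2FC of 0.41 (SE 0.06, adjusted p = 0.000463 by edgeR), and Gad1, which makes GABA, had 0.43 (SE 0.07, adjusted p = 0.000627). Pde2a, which hydrolyses cyclic nucleotides, had a log2FC of 0.04 (SE 0.08, adjusted p = 0.778). Penk and Tac1, given above, belong to the same list and were well measured, at 459 to 1297 and 58.1 to 103 CPM over the 12 libraries. Other genes of the list were near the limit of detection: Drd4 was at 0.177 to 4.02 CPM and 0.153 to 1.25 CPM (0.25, SE 0.60, adjusted p = 0.824), and Gpbar1 at 0 to 2.62 and 0.959 to 4.86 CPM (−1.53, SE 0.65, adjusted p = 0.114). The histone gene H2ac24 ranged from 0 to 12.6 and from 0 to 3.78 CPM (1.67, SE 1.48, adjusted p = 0.484). In pools labelled female and male the log2FC was 5.32 and −2.30 for H2ac24, −0.26 and 1.05 for Drd4 and −2.94 and −0.69 for Gpbar1, so the pooled values of H2ac24 and Drd4 join unlike pools. The difference between the sexes did not pass for any of these 3 genes (adjusted p = 0.982 by edgeR). H2ac24 passed in the female pools alone (adjusted p = 0.00175) but had a log2FC of 0.45 over all pools without F2, and Gpbar1 passed only with the likelihood-ratio test (adjusted p = 0.0479). H2bc23, H2al1e and Galr3 were too low to be tested. The study reports Drd4 as higher in female and lower in male cocaine-seeking cells, and Gpbar1 as higher in females. Those values were averaged over its reference populations. Against sucrose-seeking cells alone, the signs given above for Drd4 in both sexes and for Gpbar1 in females were the opposite. Pde2a is reported as higher in males, whereas its 0.04 above is over both sexes. These genes were picked by the study on these libraries, so neither agreement nor difference here is independent evidence.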

How the data were processed

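The libraries were made by the authors from NeuN-gated sorted events, cells and possible debris, of NAc punches (label Nucleus-accumbens-core; per the methods mainly lateral shell and core), with a ribosome-depleted SMART-seq kit, and were trimmed with CutAdapt and quantified with Salmon against GRCm39 transcripts. No source used here gives their versions. The deposited values are estimated counts per transcript, beside the TPM that the authors' files also hold, used here only for length-scaled counts. Groups follow the titles, since descriptions of some samples name another sex or region. The sucrose-seeking mPFC library of male pool 3 by title has female as its sex label.

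Estimated counts were summed per gene with GENCODE vM39 (116085 of 117209 transcripts matched; unmatched ones hold 2.45 to 5.08% of counts in the 12 libraries) and rounded. Tests used edgeR 4.0.16 in R 4.3.3: quasi-likelihood, TMM factors, filterByExpr, pool as a block, Benjamini-Hochberg adjustment over all genes. Populations of a pool come from the same mice. After population means were removed, same-pool libraries correlated at 0.227, 0.331, 0.07, 0.128, 0.082 and 0.246 (F1 to M3). Mean correlations with other pools of the same sex were −0.026 to −0.186. Removing means of few pools itself pushes correlations between pools below 0, so these values are not a separate reference. Levels are CPM with TMM factors of the 24 NAc libraries. Alternatives used DESeq2 1.42.0, limma 3.58.1 voom, length-scaled counts, other filters and left-out pools. The tests were first tested on simulated counts.

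Named genes are the 12 smallest p in each direction among called protein-coding genes with at least 10 CPM and the same direction in all 6 pools, up to 4 members of each list with the smallest p past 0.05, the gate genes and the genes the study names; others serve as context within their list and were chosen after values were seen. The comparison and the gene lists were chosen with earlier results of these data known. The lists give no test of their own. Some genes that the rule names are not reported here.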

Additional observations from a re-analysis of the deposited data

Results flagged for a closer look

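In groups of 6 libraries, the highest or lowest library was tested for its gap to the rest (Dixon's criterion at 95%), over 272 groups. Chance alone sets apart about 5% of such groups, and 23 were set apart.

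The sucrose-seeking library of pool M1 accounts for 13 of them. Against the other 5 sucrose-seeking libraries it was low for Leng8 (243 CPM against 365 to 421), Zfp950 (61.8 against 97.5 to 115), Eef1akmt3 (201 against 402 to 499), Spaca6 (46.5 against 83.4 to 104), Grik2 (110 against 189 to 234), Grm7 (89.2 against 149 to 181) and Cacna1d (92.6 against 138 to 155). It was also low for the vascular genes Abcc9 (10.3 against 17.5 to 20.8), Rgs5 (13.5 against 43.5 to 55.9), Col4a1 (47.7 against 72.2 to 83.5) and Col4a2 (64.04 against 97.4 to 113). It was high for Tbr1 (52.1 against 18.7 to 27.1 CPM) and for unmatched counts (5.08% against 3.33 to 3.97%). This library had the fewest counts of the 12. Without pool M1 the fit called 2771 higher and 2280 lower genes, and 23 of 28 endothelial genes were lower.

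The cocaine-seeking library of pool F2 was low for pseudogenes (3.16% against 4.76 to 5.59%) and lncRNA (0.42% against 0.617 to 0.733%) and high for the summed interneuron genes (2350 CPM against 1681 to 1890). The sucrose-seeking library of pool F2 was high for Ctss (34.2 against 24.1 to 27.5 CPM). For the summed ependymal and choroid plexus genes, the cocaine-seeking library of pool F3 was high (53.6 against 23.1 to 31.6 CPM). The sucrose-seeking library of pool M2 was low for Laptm5 (12.5 against 15.4 to 16.4 CPM). That of pool M3 was high for Rbfox3 (254 against 181 to 204 CPM) and Tac1 (86.8 against 58.6 to 65.8 CPM) and low for Drd4 (0.153 against 0.899 to 1.25 CPM), and the cocaine-seeking library of pool M1 was high for Drd4 (4.02 against 0.177 to 1.09 CPM).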

How the results depend on the processing

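Without the replicate block (the pool), calls at 0.05 were 739 higher and 622 lower, and at the study's limits 15 and 0. Length-scaled counts gave 369 and 195, and 0 and 0. The protein-coding transcripts gave 1685 and 1280, and 23 and 75. Female pools alone gave 172 and 190 at the study's limits, and male pools alone 10 and 4 at 0.05 and 3 and 1 at the study's limits. With all 24 NAc libraries 1400 were lower at 0.05 and 55 at the study's limits. The likelihood-ratio test called 252 lower, and no filter on low counts 83 higher, at those limits. Leaving out each pool in turn gave 1869 to 2925 higher and 1402 to 2280 lower at 0.05, and 36 to 166 lower at the study's limits, with the lowest without F2. The share of calls that were higher, 54.1% in the main test, was 67.1% with 24 libraries, 65.4% with length-scaled counts, 66.7% in female and 71.4% in male pools. Of tests of a difference, no filter gave 7 genes for sex and 3 for region, limma-voom 1 for sex and DESeq2 295 for region.

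List medians under length-scaled counts were 0.36 (D1), −0.061 (medium spiny neurons, shared), 0.32 (interneurons), −0.012 (glutamatergic), 0.26 (vesicle release), −0.10 (glutamate receptors) and −0.22 (oligodendrocyte precursors). In female pools they were 0.36 (D2), 0.59 (interneurons), 0.32 (activity-regulated), 0.11 (oligodendrocytes), 0.19 (their precursors) and 0.50 (genes the study names). In male pools they were 0.33 (interneurons) and −0.18 (pericytes). Signs turned with length-scaled counts for Drd2 (−0.15), Bcl11b (−0.01), Rasd2 (−0.14), Slc17a6 (−0.047), Cux2 (−0.24), Camk2a (−0.19), Cnp (−0.064), Arc (−0.19) and Rbfox3 (−0.064), and with protein-coding transcripts for Zgpat (0.71). The cause was not tested. Of 103 named genes, 39 fell below the threshold without the block, 48 with length-scaled counts, 14 of 102 with protein-coding transcripts and 83 in male pools. Of the 10 named genes not past the threshold, 5 took either sign over the settings (Folr1, Fos, H2ac24, Drd4 and Pde2a).

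With 6 pools, the lowest exact p is 0.031. Genes near 1 CPM or below, such as Drd4 and Gpbar1, rest on few counts per library and have standard errors of 0.60 and 0.65. Errors cover the spread between pools only.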
